A study of Homo sapiens with 52 samples.

Results

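The genes examined here are 6 receptor tyrosine kinase genes that are known for their part in leukaemia or in blood cell growth: PDGFRA, KIT and KDR on chromosome 4, FLT3 and FLT1 on chromosome 13, and CSF1R on chromosome 5. They were taken by position as the 100 kb bins of hg19 that overlap each gene, which gave 10 of 26584 measured bins. All 10 bins held a value in every cell, so no member was lost to a filter. Contact with the nuclear lamina, the protein mesh under the inner nuclear membrane, was measured in KBM7, an established human chronic myeloid leukaemia line. All cells came from 1 clone, clone 14, which was diploid (2N) and carried Dam fused to LaminB1, a DNA adenine methyltransferase tethered to the lamina that marks DNA close to it. The fusion was stabilised with 0.5 nM Shield1 for 15 h, and small cells (the smallest 2%) positive for both Fucci cell cycle markers were sorted one by one. Of 52 labelled cells, the 51 with a column were used. They form 1 group with no untreated or Dam-only cells, so the other bins of the same cells serve as the background.

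Receptor tyrosine kinases sit in the cell membrane, bind a growth factor outside and phosphorylate tyrosines inside. The 6 genes belong to the related platelet-derived growth factor and vascular endothelial growth factor receptor families, whose genes lie side by side as relics of ancient duplications. KIT is the receptor of stem cell factor on blood progenitors and mast cells, FLT3 binds FLT3 ligand on early progenitors, and CSF1R binds macrophage colony-stimulating factor on monocytes. PDGFRA is a receptor of platelet-derived growth factors and is fused to FIP1L1 in some eosinophilic leukaemias. KDR and FLT1 are receptors of vascular endothelial growth factors, best known in endothelium. DNA in contact with the lamina is mostly gene-poor and weakly transcribed in many cell types. RNA was not measured, so whether KBM7 cells expressed these genes is not known from these data, and the cell line label could not be checked against expression.

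Each value is the observed signal of a bin over the expected one (OE). Contact of a bin means that its OE was 1 or more, and contact of a gene that the mean OE of its bins was 1 or more. Whole read numbers recovered from the ratios had a median of 142540 per cell, with the lowest total in cell 9 (50978) and the highest in cell 26 (316463). A cell had contact in 31.5% ± 3.56 (SD, n = 51 cells) of all bins. The labels give no cultures or sorting days, so all cells were treated as 1 sample. No p-value over cells is given, and SDs describe these cells only. Intervals of shares of cells are 95% Wilson intervals. They cover counting error only, take cells as independent draws and leave out differences between cultures.

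None of the 6 genes was a frequent lamina contact. KDR stood highest, in contact in 17 of 51 cells. KIT, 0.2 Mb away, was in contact in 3 cells and PDGFRA in 1, while FLT3, FLT1 and CSF1R were in contact in no cell. No gene reached 50% of cells, against 32.1% of all bins, and 1 gene of 6 reached 20% of cells, against 42.9% of all bins. At the low end, 4 genes were contacted in at most 5% of cells, against 46.7% of bins, and 3 in no cell, against 38.7%. These shares of bins are of single bins, whereas contact of a gene averages 1 to 3 bins. With 6 genes in 3 loci the shares of genes are coarse, and no test was made of them. Of the bins contacted in no cell, 1985 held no read at all, and what they could have shown is unknown. The 10 bins together were contacted in 5.10% ± 8.80 (SD, n = 51) of bins per cell, with a median of 0%. In 33 cells no bin of any of the 6 genes was contacted, and the highest number was 4 of 10 bins, in cell 1.

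**Figure D1:**
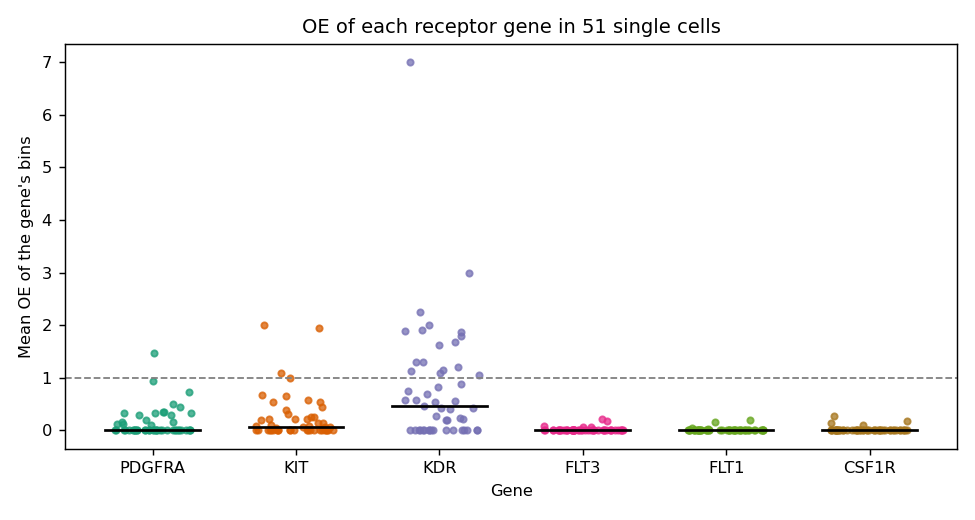
Mean OE of each gene's bins (vertical axis, a ratio without unit) in 51 single cells (points), with the median as a black bar and the contact threshold of 1 as a dashed line. KDR reached 7.00 in cell 42 and lay at or above 1 in 17 cells, KIT in 3 and PDGFRA in 1, while FLT3, FLT1 and CSF1R did not exceed 0.272.

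Of the growth factor receptors on chromosome 4, KDR lay in the bin from 55900001 to 56000000. Its OE ranged from 0 to 7.00 with a median of 0.471 and a mean of 0.814 ± 1.16 (SD, n = 51). Cells fell into 3 equal classes, with 17 at 0, 17 above 0 but under 1, and 17 in contact (33.3%, interval 22.0% to 47.0%). This share depended on the cells and the threshold, with 48.0% in odd-numbered and 19.2% in even-numbered cells and 7.84% at an OE of at least 2, where KIT and PDGFRA stood at 0%. The highest values were 7.00 in cell 42, 3.00 in cell 1 and 2.25 in cell 9, and the other 14 contacted cells lay between 1.06 and 2.01. Cell 42 thus stood far above the rest, with 42 reads in this bin. The same cell had the lowest contact share of the whole genome (24.1%). The value of cell 9 rested on 5 reads, since at an OE of 1 the KDR bin held 2.22 reads in this shallowest cell and 13.9 in the deepest. Single KDR calls in shallow cells therefore rest on few reads.

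KDR lay near the middle of its chromosome's bins. Of all 26584 bins, 61.8% were contacted in fewer cells and 37.5% in more. On chromosome 4, 50.0% of 1883 bins were contacted in more cells. This chromosome had 43.6% ± 4.94 (SD, n = 51) of its bins in contact.

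KIT overlapped the 2 bins from 55500001 to 55700000. Its mean OE ranged from 0 to 1.99 with a median of 0.0576 and a mean of 0.242 ± 0.438 (SD, n = 51). KIT was in contact in cell 46 at an OE of 1.99 (52 reads), in cell 1 at 1.94 (26 reads) and in cell 39 at 1.10 (10 reads), which is 5.88% of cells (interval 2.02% to 15.9%). These 3 cells were the only ones at or above 1 for the gene as a whole, and cell 45 lay just under it at 0.993. Each of the 2 bins on its own was contacted in 4 cells. Cells 1, 39 and 46 had contact in both, cell 45 in the first alone and cell 18 in the second alone. The gene held 213 reads over all cells, where an OE of 1 in every cell would have given 734.5. A contact at an OE of 1 corresponded to 4.81 reads at KIT in the shallowest cell and 30.0 in the deepest.

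PDGFRA lay in the bin from 55100001 to 55200000. Its OE ranged from 0 to 1.48 with a median of 0 and a mean of 0.142 ± 0.278 (SD, n = 51). Cell 1 was the only cell in contact, at 1.48 with 9 reads (1.96%, interval 0.347% to 10.3%). Cell 46 came next at 0.930, 33 cells were at 0, and 17 lay between 0 and 1. The rounded position of the gene's start falls on the border with the bin before, which was contacted in 0 cells.

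FLT3 and FLT1, on chromosome 13, had almost no signal. FLT3 overlapped the 2 bins from 28500001 to 28700000 and held 9 reads over all 51 cells, where an OE of 1 in every cell would have given 547 reads. Its mean OE was 0 in 46 cells and reached at most 0.221, in cell 3. FLT1 overlapped the 3 bins from 28800001 to 29100000 and held 12 reads, against 1078 at an OE of 1 everywhere. It was at 0 in 47 cells, and its highest value was 0.199 in cell 32. The few reads were shared, since 6 cells held reads at either gene and 3 of them (cells 23, 32 and 38) held reads at both. Cell 38, with 4 reads at FLT3 and 6 at FLT1, had 287566 reads in all and was among the deeper cells. The part of depth in these reads was not tested.

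CSF1R, in the bin from 149400001 to 149500000 of chromosome 5, held 5 reads in 4 cells, where an OE of 1 everywhere would have given 453. Its values were 0.0959 in cell 20, 0.149 in cell 2, 0.178 in cell 39 and 0.272 in cell 11, and 0 in the other 47 cells. For each of FLT3, FLT1 and CSF1R, 0 of 51 cells leaves room for a true share of 5.88% under the rule of 3 counts, and the Wilson interval, a different rule, ends at 7.00%. Bins like these are common. Windows of the same number of bins that no cell contacted made up 39.3% of all windows of 2 bins, 39.0% of those of 3 bins and 38.7% of single bins. On the gene's own chromosome the share was lower, at 28.2% for FLT3, 27.9% for FLT1 and 29.4% for CSF1R. These shares include bins without reads.

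The order of the genes was KDR, KIT, PDGFRA and then the 3 genes without contact. KDR was in contact without KIT in 14 cells and KIT without KDR in 0, and the intervals of the 2 genes did not overlap. The OE of KDR exceeded that of KIT in 31 cells and lay below it in 7. For KIT and PDGFRA the intervals overlapped, with 2 cells in contact at KIT alone and 0 at PDGFRA alone. The OE of KIT was higher in 24 cells and lower in 10. Both genes were read in the same cells, so overlap of intervals does not decide whether they differ. PDGFRA and CSF1R differed by 1 cell in contact, and the OE of PDGFRA was higher in 18 cells and lower in 4. Among CSF1R, FLT3 and FLT1 there was no contact to order, and their intervals (0% to 7.00%) were the same.

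Contact at the 3 genes of chromosome 4 was nested. All 3 cells with KIT in contact also had KDR in contact, and the 1 cell with PDGFRA in contact (cell 1) had all 3. If contact at KIT and KDR were unrelated, 1 shared cell would arise from their frequencies. The phi correlation of contact calls over 51 cells was 0.354 for KIT and KDR, the highest value that their frequencies allow. The Pearson correlation of log2(OE + 0.1) was 0.533 for these genes. For PDGFRA this Pearson correlation was 0.414 with KIT and 0.382 with KDR. These values describe cells that share depth and bins that share a chromosome arm, and phi for PDGFRA rests on 1 cell. Across chromosomes no contact calls could be paired, because 3 genes had no contact. The Pearson correlation of log2(OE + 0.1) between genes of different chromosomes lay between -0.190 (PDGFRA and CSF1R) and 0.237 (PDGFRA and FLT3). For FLT3 and FLT1 it was 0.631, which rests on the few cells with reads there.

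**Figure D2:**
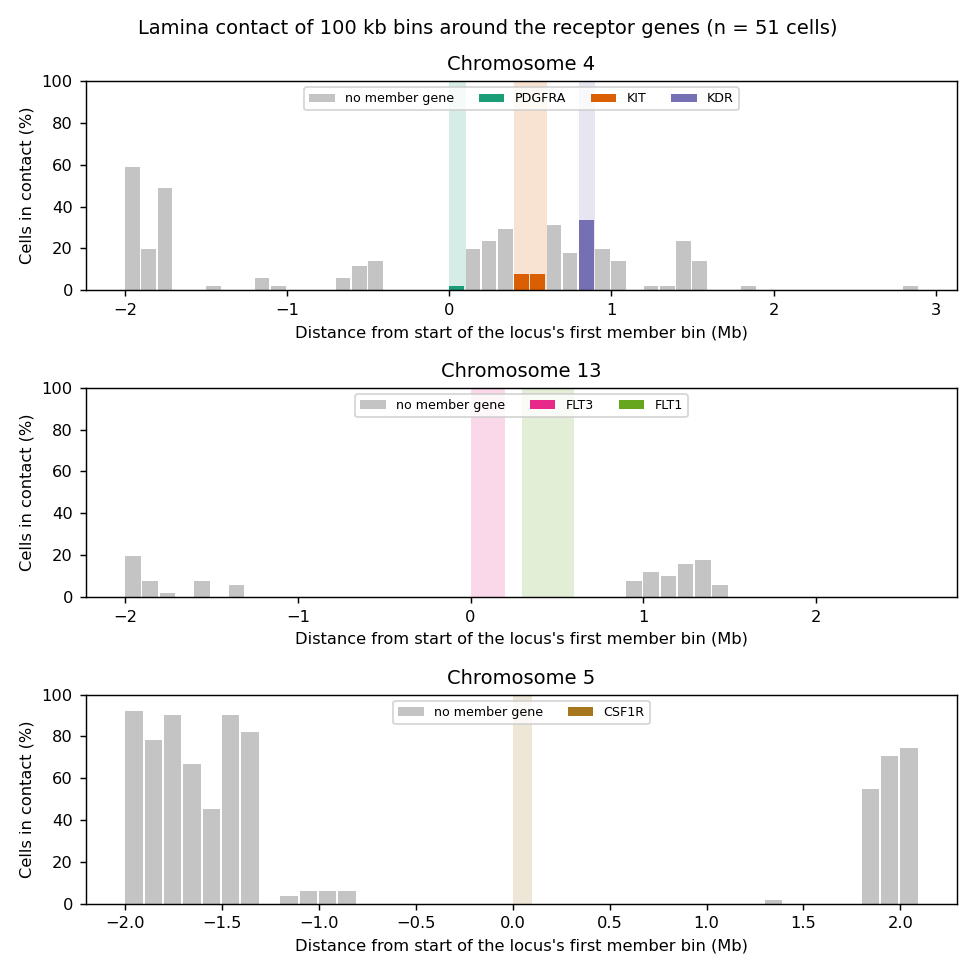
Share of 51 cells in contact (vertical axis, percent) for each 100 kb bin from 2 Mb before to 2 Mb after the genes of each chromosome, by distance in Mb. On chromosome 4, KDR (17 cells) and the bins around KIT stand within a low mound with a dip at KIT (4 cells per bin). On chromosomes 13 and 5 the genes lie in gaps without contact.

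The surroundings differed between the 3 loci. Around the chromosome 4 genes, within 2 Mb on each side, contact covered 8.56% ± 8.83 (SD, n = 51) of the 49 bins. No bin there reached 80% of cells, and 7 reached 20%. The nearest bin contacted in at least 50% of cells lay 1.9 Mb before PDGFRA (53100001 to 53200000, 30 cells) and 2.1 Mb after KDR (58100001 to 58200000, 31 cells). The locus was thus a region of low contact on a chromosome whose overall share was far higher.

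KIT and KDR lay in the same stretch of 10 adjacent bins that were each contacted in over 5% of cells, from 55200001 to 56200000. PDGFRA lay in the bin directly before its left edge, and the bin directly after its right edge was contacted in 0 cells. Along the stretch, the 3 bins before KIT were contacted in 10, 12 and 15 cells, the 2 KIT bins in 4 and 4, and the 2 bins between KIT and KDR in 16 and 9. The KDR bin had 17 cells, and the last 2 bins had 10 and 7. Contact therefore stood higher on both sides of KIT than at KIT.

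The dip at KIT was then described cell by cell, after it had been seen in the counts, so the values restate it and are no separate support. The 2 bins directly beside KIT (55400001 to 55500000 and 55700001 to 55800000) were contacted in 30.4% of cells on average and the 2 KIT bins in 7.84%, a difference of 22.5 percentage points ± 35.1 (SD, n = 51). More bins beside KIT than at KIT were contacted in 17 cells, fewer in 0, and as many in 34. By OE, the bin before KIT was higher than KIT in 35 cells and lower in 5, and the bin after it was higher in 33 and lower in 8. Of 9 cells with contact on both sides, 6 had no contact at KIT as a whole. The expected numbers recovered per bin, before scaling by a factor of each cell, were 380 and 337 for the KIT bins and 389 and 405 for the bins beside them.  Genome-wide, 471 windows of 4 bins had outer bins contacted in 10 to 20 cells, and in 20 of these (4.25%) both inner bins were contacted in at most 4 cells. The median of such windows had 15.5 cells as the mean of the inner bins. These limits were set around the KIT dip after it was seen, and the KIT window itself meets them. Under them, a dip of this depth was infrequent but found elsewhere too, which is a description only.

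**Figure D3:**
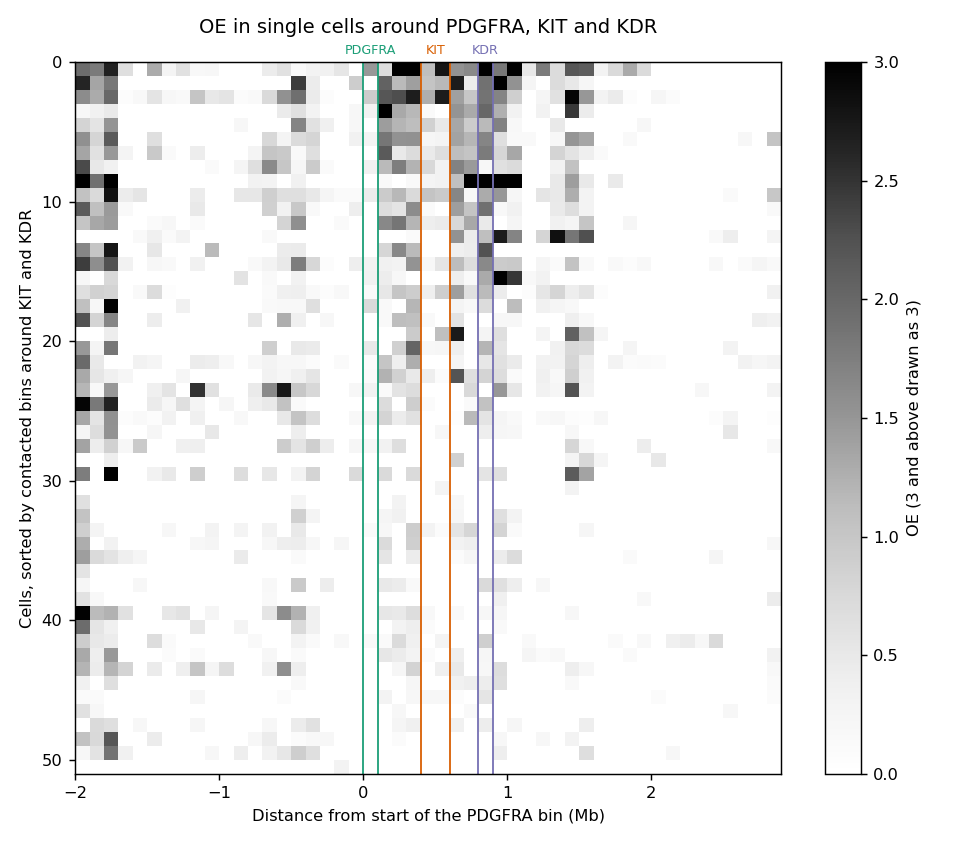
OE (grey scale, a ratio without unit, values of 3 and above drawn as 3) of each 100 kb bin around PDGFRA, KIT and KDR (horizontal axis, distance in Mb from the start of the PDGFRA bin) in each of 51 cells (rows), sorted by the number of contacted bins in the stretch that holds KIT and KDR. No bin of the stretch was contacted in 25 cells, and coloured lines mark the member bins, with KIT paler than its neighbours in most contacted cells.

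Cells differed widely over this stretch. It was contacted in 20.4% ± 26.3 (SD, n = 51) of its bins per cell, with no bin contacted in 25 cells and at least 5 of 10 bins in 10 cells. The most were 9 bins, in cells 1 and 39, followed by 8 in cell 46, and no cell had all 10. These counts include the KIT bins. The uninterrupted contact that held the KDR bin was 0.3 Mb long at the median of its 17 cells, from 0.1 Mb in 5 cells to 0.9 Mb in cell 1. In cell 42, where KDR had its highest OE, it ran over 0.5 Mb and ended before KIT.

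Bins of the stretch were contacted in the same cells to a moderate degree. Over its 9 pairs of adjacent bins the mean phi over 51 cells was 0.506. The mean over all 1787 adjacent pairs in the genome whose bins were each contacted in 4 to 17 cells was 0.438, and 80% of those lay between 0.190 and 0.672. The mean of the stretch was also above that of the genome at 0.2 Mb (0.393, genome 0.373) and 0.4 Mb (0.381, genome 0.323). The same held at 0.5 Mb (0.444 over 5 pairs, genome 0.317) and 0.6 Mb (0.360 over 4 pairs, genome 0.279). At 0.7 Mb both were 0.274. The mean of the stretch was below that of the genome at 0.3 Mb (0.296 over 7 pairs, genome 0.350), 0.8 Mb (0.151 over 2 pairs, genome 0.251) and 0.9 Mb (0.0900 for 1 pair, genome 0.252). The stretch was thus not above the genome throughout, and bins of a pair share the cells and their depth.

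The cells with KDR in contact overlapped the others in depth and total contact. They had 148847 reads at the median (50978 to 304780), against 130424 (77387 to 316463) in the 34 others. Their contact share of the genome had a median of 34.4% (24.1% to 38.1%), against 30.7% (26.1% to 39.9%). The ranges overlapped almost wholly, though both medians were higher in the contacted cells, and their part in the KDR calls was not tested. Over the 51 cells, the log2(OE + 0.1) of KDR correlated with reads at a Pearson's r of 0.235 and with the contact share of chromosome 4 outside the 2 Mb window at 0.256 (0.210 and 0.254 without the 2 farthest cells). The Spearman's rho values were 0.264 and 0.266. In sparse reads such weak values are a description only.

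FLT3 and FLT1 shared an empty gap with PAN3, the gene that lies between them in the RefSeq order. No cell had contact in any of its 22 bins from 27200001 to 29400000 (2.2 Mb), which held at least 127 reads over all cells. In 1 of these bins every cell was at 0, so its expected number is unknown. Of 1443 runs of bins without contact in the genome, 111 (7.69%) were at least this long, and they held 18.9% of all bins. Within 2 Mb of the genes on each side, contact covered 2.43% ± 4.23 (SD, n = 51) of the 46 bins, against 33.3% ± 8.83 for chromosome 13. No bin there reached 20% of cells.

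The nearest contact lay 0.3 Mb beyond FLT1, in a patch of 6 bins from 29400001 to 30000000 that was contacted in 3 to 9 cells per bin and in 13 cells in any bin. Of the 6 cells with reads at FLT3 or FLT1, 1 had contact in this patch. Bins contacted in at least 50% of cells were far, 5.4 Mb before FLT3 and 5.6 Mb after FLT1.

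CSF1R also lay in a gap, but with bins contacted in at least 50% of cells nearer, 1.3 Mb before and 1.7 Mb after the gene. The 21 bins from 148600001 to 150700000 (2.1 Mb) had no contact in any cell and held at least 75 reads. For 3 of these bins the expected number is unknown, because every cell was at 0 there. Runs without contact at least this long numbered 126 of 1443 (8.73%) and held 20.1% of all bins, while the median run was 0.2 Mb long. The frequent contact nearest to CSF1R was the bin from 148000001 to 148100000, 1.3 Mb away, with 42 cells in contact. The next bin towards the gene was contacted in 0 cells, so frequent contact ended within 1 bin, and the 4 bins after that were contacted in 2 to 3 cells. On the other side, the bin directly after the gap was contacted in 1 cell. Further out, the bin from 151100001 to 151200000 was contacted in 0 cells and the bin after it, 1.7 Mb from the gene, in 28. Within 2 Mb on each side, contact covered 18.7% ± 6.66 (SD, n = 51) of the 41 bins, against 36.9% ± 5.73 for chromosome 5, with 10 bins at or above 20% of cells and 4 at or above 80%. PDGFRB, the platelet-derived growth factor receptor gene next to CSF1R, overlaps the CSF1R bin and the next one and was in contact in 0 cells, with 9 reads in all.

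Dam methylates the adenine of the sequence GATC, so reads can arise only where these letters occur. RefSeq start regions are shown for 3 genes that differ in contact: KDR, the most contacted gene, KIT, its neighbour within the dip, and CSF1R, which had none. They hold the 250 bases before the annotated start, 5′ to 3′ on the gene's strand, in GRCh38.p14, whose positions cannot be set against the hg19 bins. GATC, which reads the same on both strands, is in capitals.
KDR (chr4:55125596-55125845, - strand): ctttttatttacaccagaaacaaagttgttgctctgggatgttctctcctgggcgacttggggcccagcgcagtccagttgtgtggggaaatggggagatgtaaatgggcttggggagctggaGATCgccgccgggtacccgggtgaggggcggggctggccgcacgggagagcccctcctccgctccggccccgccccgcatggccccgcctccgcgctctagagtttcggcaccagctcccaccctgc
KIT (chr4:54657707-54657956, + strand): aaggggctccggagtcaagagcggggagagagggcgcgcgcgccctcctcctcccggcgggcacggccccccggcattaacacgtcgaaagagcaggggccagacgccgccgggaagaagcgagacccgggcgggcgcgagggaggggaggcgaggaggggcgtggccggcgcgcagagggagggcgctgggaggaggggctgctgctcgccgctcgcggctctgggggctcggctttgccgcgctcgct
CSF1R (chr5:150086555-150086804, - strand): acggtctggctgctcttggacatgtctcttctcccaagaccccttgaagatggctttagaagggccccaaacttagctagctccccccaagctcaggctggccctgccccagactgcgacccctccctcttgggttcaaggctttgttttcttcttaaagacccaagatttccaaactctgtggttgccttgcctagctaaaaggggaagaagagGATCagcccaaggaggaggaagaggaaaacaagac

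For CSF1R, the second of 2 RefSeq starts in the direction of transcription is shown. All 6 genes matched the RefSeq table, with 8 windows. GATC was present in 3 of them, 1 of KDR and both of CSF1R, and in 35.8% of 35116 windows of the same length. KIT had the most CpG dinucleotides, with 34 in 250 bases (76.4% G and C), against 17 for KDR and 2 for the CSF1R window shown, and a median of 11 over all windows. FLT3 had 26 and FLT1 had 25, and the PDGFRA windows had 8 and 25. CpG-dense starts occurred both at genes with contact and at genes without. Each bin is 100 kb long, so GATC in these windows is a small part of the sites behind a value.

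The ligands and the remaining receptors of both families were compared in the same cells. The list held 14 genes, 12 ligands and 2 receptors. PDGFB, on chromosome 22, was left out since its place on the joined chromosomes was not settled. Of these genes, 1 was in contact in at least 50% of cells (32.1% of all bins), 10 in at most 5% (46.7% of bins), 7 of these in no cell (38.7% of bins), and 2 had no read in any cell, so that their contact is unknown. The shares of bins are of single bins and include bins without reads, whereas contact of a listed gene averages 1 to 4 bins. Counted in the same way, 12 genes of the list were in contact in at most 5% of cells and 9 in no cell. The 2 genes without reads are also counted at 0 in the median. The median gene of the list was in contact in 0 cells, as against 4 cells for the median bin and 0.5 for the 6 genes.

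VEGFC, a ligand of KDR and of the lymphatic receptor FLT4, stood apart. It lies on chromosome 4 like KDR, in the 2 bins from 177600001 to 177800000, and was in contact in 50 of 51 cells (98.0%, interval 89.7% to 99.7%). Its OE ranged from 0.712 to 7.37 with a median of 2.77. The range of the ligand's values overlapped that of its receptor KDR, but its median was above all but 2 of the KDR values. KITLG, the stem cell factor that binds KIT, was in contact in 11 cells (21.6%, interval 12.5% to 34.6%) with a mean OE of 0.503 ± 0.643 (SD, n = 51). PDGFC, a platelet-derived growth factor that binds PDGFRA, was in contact in 2 cells, and PDGFD and FIGF (VEGFD) in 1 cell each.

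The 7 genes without contact whose bins held reads were the receptors PDGFRB and FLT4 and the ligands FLT3LG, CSF1, VEGFA, VEGFB and PGF, each with 2 to 9 reads in all. FLT4 had the lowest mean OE of them, with 2 reads. The bins of IL34, the second ligand of CSF1R, and of PDGFA were at 0 throughout. Their expected number is unknown, so they are not ranked and no limit is given for them.

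**Figure D4:**
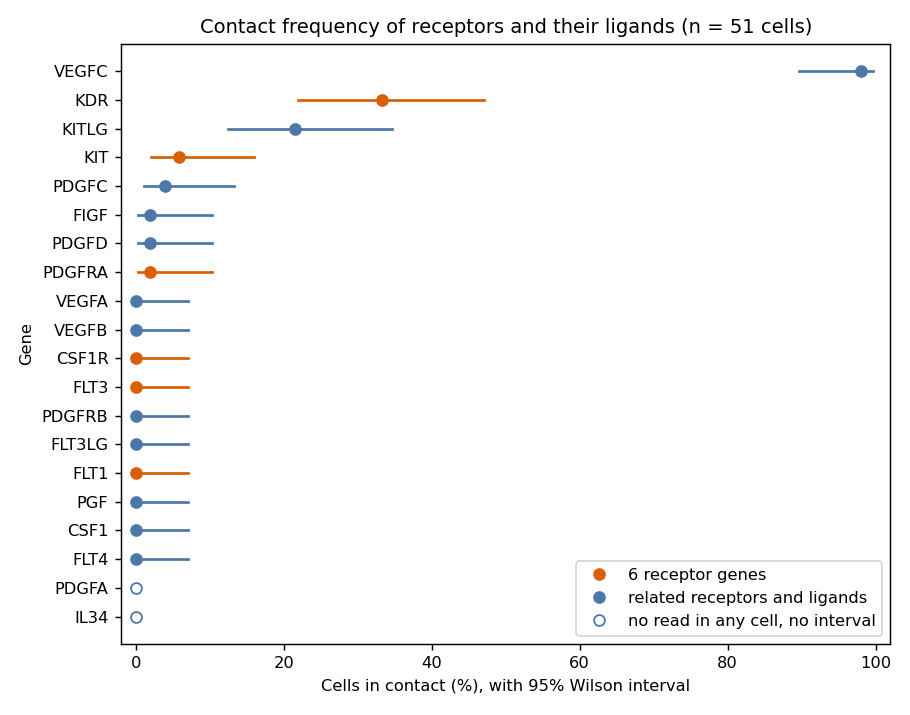
Share of 51 cells in contact (horizontal axis, percent, points) with its 95% Wilson interval (lines) for the 6 receptor genes and the 14 related receptors and ligands, sorted by share. VEGFC lies at 98.0%, KDR at 33.3% and KITLG at 21.6%, and all others lie at or below 5.88%. Open circles are genes whose bins were at 0 in all cells, drawn without an interval.

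Bins on other chromosomes whose signal varied most like that of each locus were looked up among bins contacted in 20% to 80% of cells. For the chromosome 4 genes together, the Pearson correlation of log2(OE + 0.1) over 51 cells was highest for a bin of chromosome 11 from 88200001 to 88300000 (0.563), followed by chromosome 2 from 225800001 to 225900000 (0.476) and chromosome 7 from 34900001 to 35000000 (0.472). The median over 5421 bins was 0.0632 and the lowest value was -0.407. For chromosome 13 the highest value was 0.427, for chromosome 10 from 42300001 to 42400000, and for chromosome 5 it was 0.391, for chromosome 2 from 133200001 to 133300000. Only 6 and 4 cells held any read at these 2 loci, so their values rest on those cells. The highest of so many bins is high by selection, and all cells share their depth between bins.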

How the data were processed

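Single-cell DamID of LaminB1 was used in 51 KBM7 cells of 1 clone. The submitters' processing notes name cutadapt, Bowtie2 2.1.0 and the genome build hg19, and per the labels' protocols the methylated DNA was amplified with 21 PCR extension steps. The authors deposited 1 ratio of observed over expected signal per 100 kb bin and cell. The making of the expected value and the treatment of duplicate reads are not stated in the sources used. Of 30376 bins, 3792 without a value were left out. Ratios above 0 were multiples of a step set by the cell and the bin, from which whole read numbers were recovered. Of the values, 100% were whole within 0.02 reads, and the recovery was tested on simulated data. The step was chosen to make values whole, and the simulated data followed the same model, so neither is independent support. Where few cells held reads in a bin and these shared a divisor, reads and expected number can be recovered too low. Read totals of nearly empty bins are therefore lower bounds. PCR reads carry no molecular identifiers, so intervals cover counting error only.

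Genes were placed by the hg19 bins they overlap, and positions of the 14 listed ligands and receptors were written by hand. All 6 genes are named, as are the 3 listed genes highest and lowest in contact and PDGFRB. The genes and lists were chosen with earlier results of these data known. With 1 group no test between samples was made. Alternatives were OE of at least 0.5 or 2, the top 30% of bins per cell, odd or even cells, omission of the 5 shallowest cells, other rules for genes of several bins, and genes widened by 1 bin. Python 3.11.15, numpy 2.4.6, pandas 2.3.3 and scipy 1.17.1 were used.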

Additional observations from a re-analysis of the deposited data

How the results depend on the processing

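Under the alternatives, 129 values moved by less than their interval or the spread between cells, 20 moved further and 0 reversed. FLT3, FLT1 and CSF1R stayed at 0% of cells in every setting run. With an OE of at least 0.5, KDR stood at 49.0% of cells, KIT at 17.6%, VEGFC at 100% and KIT exceeded PDGFRA by 9.80 points. With an OE of at least 2, KDR stood at 7.84%, KIT and PDGFRA at 0%, joint contact of KIT and KDR at 0%, KDR exceeded KIT by 7.84 points, KITLG stood at 5.88%, VEGFC at 82.4% and the surroundings of CSF1R at 11.3%. These shifts follow from the threshold. KDR stood at 48.0% in the 25 odd-numbered cells, where it exceeded KIT by 40.0 points, and at 19.2% in the 26 even-numbered cells, where PDGFRA stood at 0% and VEGFC at 100%. The frequency of KDR is thus known only roughly from 51 cells. With the top 30% of bins VEGFC stood at 100%, with every bin required KITLG stood at 9.80%, and with genes widened by 1 bin KDR exceeded KIT by 11.8 points, as KIT rose to 11.8% and KDR fell to 23.5%. The excess of the bins beside KIT over KIT ranged from 3.92 to 33.3 points and was lowest at an OE of at least 2. A minimum of 3 recovered reads was chosen after seeing the data. No paired analysis between samples was possible because all cells form 1 group. Depth limits calls most in cell 9, where the KDR bin at an OE of 1 held 2.22 reads.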
